A study of Mus musculus with 18 samples.

Results

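The aryl hydrocarbon receptor (AHR) and Cyp1 genes were 7 of the 37303 genes in the deposited liver expression table, chosen by name: Ahr, Arnt, Ahrr, Tiparp, Cyp1a1, Cyp1a2 and Cyp1b1. Each name matched 1 row, and all 42 of their values (7 genes in 6 groups) carried the status OK of Cuffdiff, the program that estimated them. RNA was sequenced from the livers of C57BL/6J mice of 3 genotypes: intact (WT), homozygous for a deletion of Gcn2 (Gcn2-/-), or homozygous for a deletion of Atf4 (Atf4-/-). GCN2 is the kinase that senses amino acid shortage through uncharged tRNA, and ATF4 is the transcription factor whose translation follows from it. Mice of each genotype received 8 daily intraperitoneal injections of asparaginase (ASNase, 3 IU per g body weight), an enzyme drug that depletes circulating asparagine and glutamine, or of phosphate buffered saline (PBS), and livers were taken 7.5 hours after the last one. All 6 groups had 3 mice of both sexes, with 2 females and 1 male in WT PBS and in both Gcn2-/- groups, and 1 female and 2 males in WT ASNase and in both Atf4-/- groups, so the balance was the same with PBS and ASNase in each knockout but not in WT. Ages ran from 8 to 16 weeks on the sample labels, while the protocol gives 8 to 12 weeks. The deletions are present in the whole animal and not in the liver alone, so a difference in liver RNA can start in another organ.

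The table gives 1 FPKM (a read count scaled to transcript length and to the number of mapped fragments) per gene and group, estimated from the 3 livers together, with a lower and an upper bound. The deposited table holds no value per liver, so no SD, n or p-value stands beside any value. The differences below were not checked against replicates. The interval printed in brackets after an FPKM is that of Cuffdiff, whose half-width had a median over genes of 51.3% to 54.2% of the value, depending on the group. A gene was called different between 2 groups when both FPKM were above 0 with status OK, at least 1 was over 3, the log2(FPKM + 0.1) values differed by more than 1.5 (2.83-fold), and the intervals did not overlap. A gene that met the first conditions, whatever its difference, is termed eligible. Differences are given on this log2 scale, which understates those of genes with low FPKM. Their error combines both intervals as the root of the summed squared log2 half-widths, each taken from the FPKM up to its upper bound. Where the lower bound is above 0, the log2 half-width down to it is larger, and it was not used. Combined intervals can therefore be too narrow, and one that ends near 0 does not separate 2 groups. Read depth is unknown from the table. In whole liver, fewer cells of a type and less RNA per cell cannot be told apart.

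AHR is a ligand-activated transcription factor that waits in the cytosol bound to heat shock protein 90 and the co-chaperone p23. Once bound by a ligand, such as a dioxin, a dietary indole or a tryptophan metabolite, it moves to the nucleus, pairs with ARNT and binds DNA at a short core with the letters GCGTG. Its classical targets encode the cytochromes P450 of the CYP1 family, which oxidise planar aromatic compounds. AHRR and TIPARP are induced by AHR and restrain it: AHRR competes for ARNT, and TIPARP is a mono-ADP-ribosyltransferase that modifies AHR and promotes its loss. CYP1A2 differs from its relatives in being made in hepatocytes without an inducer, mostly in those around the central vein, and clears caffeine, melatonin and aromatic amines.

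Promoter sequence is shown for the genes whose levels the results turn on, Cyp1a2 and Tiparp, and for the other Cyp1 genes, so that the receptor's core can be seen. Each run covers the 250 bases before the RefSeq start site, 5′ to 3′ on the gene's strand, in build GRCm38.p6, with every GCGTG core or its reverse complement CACGC in capitals. Sequences were found for 6 of the 7 genes. Ahr was not matched.
Tiparp, chr3:65528197-65528446, plus strand: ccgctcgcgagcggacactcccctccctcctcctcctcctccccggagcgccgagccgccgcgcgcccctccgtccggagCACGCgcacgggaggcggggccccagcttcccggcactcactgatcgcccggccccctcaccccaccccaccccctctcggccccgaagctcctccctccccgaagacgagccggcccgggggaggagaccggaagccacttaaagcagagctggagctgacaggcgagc
Cyp1a1, chr9:57697363-57697612, plus strand: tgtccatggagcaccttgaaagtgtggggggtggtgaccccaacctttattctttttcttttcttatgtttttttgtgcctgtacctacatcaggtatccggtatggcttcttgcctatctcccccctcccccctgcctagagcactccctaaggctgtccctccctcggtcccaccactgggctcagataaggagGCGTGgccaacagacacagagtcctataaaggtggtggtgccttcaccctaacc
Cyp1a2, chr9:57683656-57683905, minus strand: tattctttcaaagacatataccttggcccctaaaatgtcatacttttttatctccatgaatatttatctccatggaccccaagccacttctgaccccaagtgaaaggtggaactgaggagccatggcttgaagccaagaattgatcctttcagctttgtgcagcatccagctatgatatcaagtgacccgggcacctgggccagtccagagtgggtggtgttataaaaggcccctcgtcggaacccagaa
Cyp1b1, chr17:79715062-79715311, minus strand: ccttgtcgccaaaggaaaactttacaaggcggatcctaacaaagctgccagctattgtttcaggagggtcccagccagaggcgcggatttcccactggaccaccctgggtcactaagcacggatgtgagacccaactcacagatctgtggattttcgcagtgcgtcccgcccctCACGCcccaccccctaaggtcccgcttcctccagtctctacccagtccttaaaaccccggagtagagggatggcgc
The core was present in 5 of the 6 windows. It occurred once in Arnt, Tiparp, Cyp1a1 and Cyp1b1, on the reverse strand in Tiparp and Cyp1b1, and 3 times in Ahrr. The Cyp1a2 window held none. At least 1 core stood in 28.2% of all 32851 promoter windows of this length, and 3 or more in 2.77%. A TATA box, TATAAA on either strand, stood in the Cyp1a1 and Cyp1a2 windows, 30 and 29 bases before the start, and in 12.4% of all windows. The amino acid response element bound by ATF4, searched as TGATGNAA on both strands, matched in none of the 6 windows and in 3.45% of all. The cAMP response element TGACGTCA was found in Arnt and in 1.55% of all windows. These matches describe letters in short windows and are not measured binding.

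Some values bear on how far the groups can be compared. Atf4 had an FPKM of 32.3 and 29.3 in the Atf4-/- groups and 50.4 to 68.1 elsewhere, with intervals that overlapped, and Eif2ak4, which encodes GCN2, had 2.19 to 3.14 with no gap at the Gcn2-/- groups. A gene-level FPKM does not show which exons the reads came from. From read density plots, the authors report that a Gcn2 exon was missing in Gcn2-/- mice and that Atf4 was missing in Atf4-/- mice. Lung epithelium markers summed to 136 in WT PBS and to 1.19 to 3.19 elsewhere, and skeletal muscle markers to 830 and 1197 in WT, 5.95 and 8.95 in Gcn2-/- and 68.0 and 167 in Atf4-/- liver with PBS and ASNase. Lung and muscle also express Ahr and Arnt, and the part of such tissue in their WT values was not tested.

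The levels of the 7 genes ranged from an FPKM of 0.0251 (Ahrr in WT ASNase) to 302 (Cyp1a2 in WT PBS). Cyp1a2 was the most abundant in every group, Ahr and Arnt were at moderate levels, and Ahrr, Cyp1a1 and Cyp1b1 stayed under an FPKM of 3 everywhere and so were eligible in no comparison. Cyp1a2 and Tiparp were the members called different between groups, and their levels moved in opposite directions in Atf4-/- liver under ASNase.

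**Figure D1:**
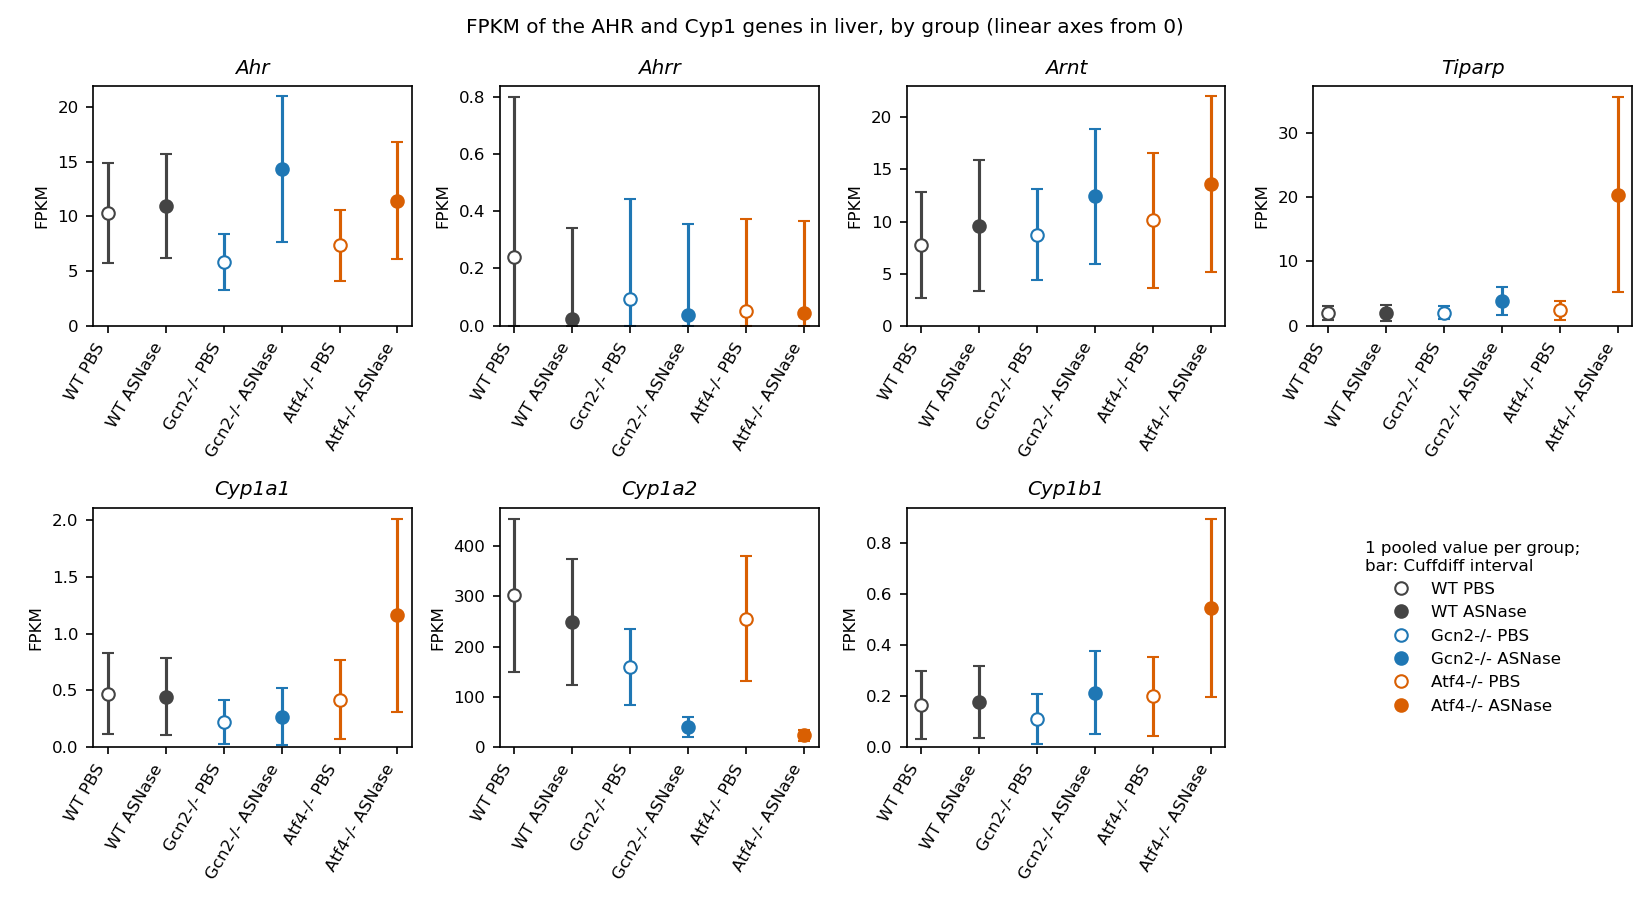
FPKM (linear axes from 0) of each of the 7 genes in the 6 groups, with open points for PBS and filled points for ASNase, coloured by genotype. Each point is the 1 pooled value of a group and each bar its Cuffdiff interval. The Cyp1a2 intervals of both ASNase-treated knockout groups, at 40.1 and 23.8, lie below those of the other groups, and the Tiparp value of 20.4 in Atf4-/- ASNase liver lies above all others.

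Ahr, which encodes the receptor, lies on chromosome 12 at 35497974 to 35535038 (minus strand, GRCm38). Its FPKM in WT liver was 10.3 (5.75 to 14.9) with PBS and 10.9 (6.17 to 15.7) with ASNase. Gcn2-/- liver had 5.83 (3.28 to 8.38) with PBS and 14.4 (7.70 to 21.03) with ASNase, and Atf4-/- liver 7.34 (4.12 to 10.6) and 11.4 (6.11 to 16.8). Gcn2-/- PBS liver was the lowest group and Gcn2-/- ASNase the highest, and the intervals of any 2 groups overlapped. The difference between these 2 groups was 1.29 on the log2 scale (combined interval 0.54 to 2.04), larger than the combined error but under the limit of 1.5, and it was not called. The corresponding differences were 0.08 in WT and 0.63 in Atf4-/- liver, both within their combined error. Under PBS, Ahr in Gcn2-/- liver was 0.81 lower than in WT on the log2 scale, with a combined interval of -1.55 to -0.08, and was not called either. This interval leaves out the wider lower half-widths, so its distance from 0 is overstated.

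Arnt encodes the partner that AHR shares with the hypoxia-inducible factors, and lies on chromosome 3 at 95434388 to 95497240 (plus strand). Its FPKM in WT liver was 7.74 (2.66 to 12.8) with PBS and 9.61 (3.33 to 15.9) with ASNase. In Gcn2-/- liver it was 8.76 (4.37 to 13.1) with PBS and 12.4 (5.97 to 18.9) with ASNase, and in Atf4-/- liver it was 10.1 (3.62 to 16.6) and 13.6 (5.13 to 22.0). The value was higher under ASNase in each genotype, by 0.31, 0.50 and 0.42 on the log2 scale in WT, Gcn2-/- and Atf4-/- liver, which is within the combined error in each. Arnt was the steadiest member, its highest level being 1.76 times its lowest.

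Ahrr, the receptor's repressor, was close to the limit of detection. It lies on chromosome 13 at 74211118 to 74292331 (minus strand). Its FPKM in WT liver was 0.239 with PBS and 0.0251 with ASNase. Levels in Gcn2-/- liver were 0.0918 with PBS and 0.0360 with ASNase, and those in Atf4-/- liver 0.0523 and 0.0454. The lower bound was 0 in all 6 groups and the upper bound ran from 0.343 to 0.797, so no order of the groups can be read from these values.

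Tiparp lies on chromosome 3 at 65528410 to 65555518 (plus strand). Its FPKM in WT liver was 2.01 (0.870 to 3.14) with PBS and 1.97 (0.684 to 3.26) with ASNase. The Gcn2-/- level was 2.03 (0.976 to 3.08) with PBS and 3.89 (1.69 to 6.09) with ASNase, and the Atf4-/- level 2.37 (0.967 to 3.78) and 20.4 (5.27 to 35.6). The 3 PBS groups and WT ASNase lay close together, Gcn2-/- ASNase was slightly higher with an overlapping interval, and Atf4-/- ASNase stood apart from all groups except Gcn2-/- ASNase. In Atf4-/- liver Tiparp rose 8.61-fold under ASNase, by 3.05 on the log2 scale (combined interval 2.02 to 4.08), and ranked 91 from the highest difference among 9485 eligible genes. Under ASNase it was 10.4-fold higher in Atf4-/- than in WT liver (3.31, combined interval 2.25 to 4.37), which was called. In both of these comparisons Tiparp was eligible, and so ranked, only through its level in Atf4-/- ASNase liver. Against Gcn2-/- ASNase liver the log2 difference of 2.36 (1.34 to 3.38) exceeded the combined error, but the intervals overlapped and it was not called. The difference of 0.91 (0.05 to 1.77) under ASNase in Gcn2-/- liver was under the fold limit. The first part of Tiparp overlaps the pseudogene 4931440P22Rik on the opposite strand, whose FPKM was 0.115 to 0.173 in 5 groups and 0.911 in Atf4-/- ASNase. The deposited table lists Tiparp and the pseudogene under the same locus, 65507257 to 65555145, which spans both. The library kit keeps no strand, so where they overlap their reads cannot be told apart, and the table does not show how reads of this locus were divided between them.

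Cyp1a2 lies on chromosome 9 at 57676937 to 57683703 (minus strand). Its FPKM in WT liver was 302 (149 to 455) with PBS and 249 (125 to 374) with ASNase. For Gcn2-/- liver the values were 159 (83.3 to 235) with PBS and 40.1 (20.3 to 59.95) with ASNase, and for Atf4-/- liver 256 (132 to 380) and 23.8 (13.2 to 34.4). In order from the highest, WT PBS, Atf4-/- PBS, WT ASNase and Gcn2-/- PBS overlapped from each to the next, a gap followed between Gcn2-/- PBS and Gcn2-/- ASNase, and the ASNase-treated knockout groups overlapped each other. Cyp1a2 fell in both knockouts under ASNase. The level was 3.97-fold lower in Gcn2-/- liver, a log2 difference of -1.99 (combined interval -2.79 to -1.18). In Atf4-/- liver it was 10.7-fold lower, a log2 difference of -3.42 (-4.20 to -2.64). In WT liver the difference was -0.28 (-1.11 to 0.55), within the error, so the interval leaves room for a change of up to 1.11 downward.

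Compared with WT livers under the same ASNase treatment, Cyp1a2 was 6.21-fold lower in Gcn2-/- (log2 difference -2.63, combined interval -3.45 to -1.81) and 10.5-fold lower in Atf4-/- (-3.38, -4.17 to -2.59), and both were called. The knockouts did not differ beyond their error under ASNase, Atf4-/- being 0.75 lower than Gcn2-/- on the log2 scale with a combined interval of -1.53 to 0.03. Under PBS, the log2 difference from WT was -0.92 (-1.74 to -0.11) in Gcn2-/- and -0.24 (-1.06 to 0.58) in Atf4-/- liver, and neither was called. The first of these intervals leaves out the wider lower half-widths, so its distance from 0 is overstated, and the FPKM intervals of the groups overlapped. The change under ASNase itself was 1.71 more negative in Gcn2-/- than in WT liver (combined interval of the difference of -2.87 to -0.55). It was 3.14 more negative in Atf4-/- than in WT liver (-4.28 to -2.00). Between the knockouts, the change differed by -1.43 (-2.56 to -0.31), under the limit of 1.5. These comparisons share groups and are not independent of each other.

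Cyp1a1, the most strongly AHR-induced member of the family, is the head-to-head neighbour of Cyp1a2, at 57687928 to 57703824 on the plus strand of chromosome 9. The table's own locus for Cyp1a1 starts at 57697613. The RefSeq start sites of the pair are 13958 bases apart. The Cyp1a1 FPKM in WT liver was 0.473 (0.119 to 0.828) with PBS and 0.446 (0.106 to 0.786) with ASNase. Gcn2-/- liver had 0.221 (0.0268 to 0.415) with PBS and 0.267 (0.0153 to 0.519) with ASNase, and Atf4-/- liver 0.418 (0.0689 to 0.768) and 1.16 (0.310 to 2.01). Atf4-/- ASNase liver had the highest value, with an interval that overlapped those of all the other groups. There the log2 difference from PBS was 1.28 (0.23 to 2.33), above 0 while that of Cyp1a2 was -3.42. The ratio of the Cyp1a2 to the Cyp1a1 FPKM, a ratio of levels per length, was 638 and 559 in WT liver with PBS and ASNase, 721 and 150 in Gcn2-/- liver, and 612 and 20.5 in Atf4-/- liver. These ratios are imprecise, because the half-width of Cyp1a1 was 73.3% to 94.3% of its value, depending on the group. Of the 100-base stretches of their protein-coding GENCODE transcripts, 38 are identical between the genes. This is 1.41% of those of Cyp1a1 and 2.06% of those of Cyp1a2, and no such stretch is shared with Cyp1b1.

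**Figure D2:**
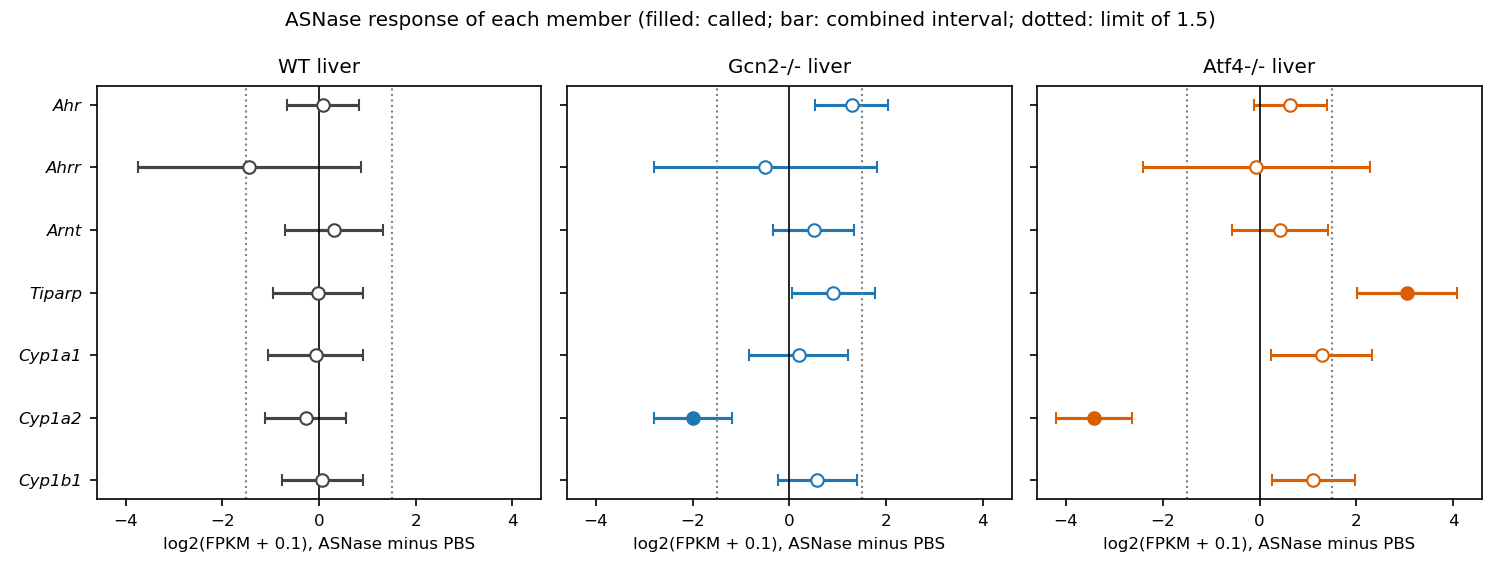
Difference of log2(FPKM + 0.1) between ASNase and PBS liver for each of the 7 genes, in 1 panel per genotype. Points are filled where the difference was called, bars are the combined interval, and dotted lines mark the limit of 1.5. Cyp1a2 is filled at -1.99 in Gcn2-/- and -3.42 in Atf4-/- liver, Tiparp at 3.05 in Atf4-/- liver, and no point is filled in WT liver.

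Cyp1b1, the family member of mesenchymal and endocrine tissues, lies on chromosome 17 at 79701537 to 79715061 (minus strand). Its FPKM in WT liver was 0.164 (0.0304 to 0.297) with PBS and 0.176 (0.0356 to 0.316) with ASNase. Gcn2-/- livers gave 0.110 (0.0112 to 0.208) with PBS and 0.213 (0.0516 to 0.375) with ASNase, and Atf4-/- liver 0.199 (0.0456 to 0.352) and 0.546 (0.198 to 0.894). The order resembled that of Tiparp, with Atf4-/- ASNase highest and a log2 difference from PBS of 1.11 (0.25 to 1.97) in that genotype, but its interval overlapped those of the other groups and the level was too low for a call. Stellate cells and fibroblasts are a source of Cyp1b1 in liver, and the summed FPKM of 8 of their markers was 145 in Atf4-/- PBS and 122 in Atf4-/- ASNase liver. Dcn made up most of the sum, at 110.5 and 104. Des was at 2.90 and 7.91, the values of the other 6 were lower with ASNase, and of these Col3a1 was called, at 5.43 and 0.398 (-3.47). Des is also expressed in muscle, whose markers summed to 68.0 and 167 in the same groups. Their part in the Cyp1b1 values was not tested.

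Counted over the members, the ASNase response called 0 of 3 eligible members in WT liver, where 0.881% of 9084 eligible genes were called. In Gcn2-/- liver it called 1 of 4, lower, against 3.69% of 9218 genes, and in Atf4-/- liver 2 of 4, with 1 higher and 1 lower, against 7.37% of 9485 genes. Under PBS no member was called: 0 of 3 in Gcn2-/- against WT (1.04% of all eligible genes), 0 of 3 in Atf4-/- against WT (1.12%), and 0 of 3 in Atf4-/- against Gcn2-/- (0.976%). Under ASNase, 1 of 4 was called in Gcn2-/- against WT (4.41%), 2 of 4 in Atf4-/- against WT (8.25%) and 0 of 4 in Atf4-/- against Gcn2-/- (3.19%). Tiparp was over an FPKM of 3 only in the 2 ASNase-treated knockout groups, so it entered these counts only through its level there. With 3 or 4 members eligible, these counts serve only to place the single genes described above.

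The neighbours of Cyp1a2 on chromosome 9, taken by position but chosen for naming after their values were seen, showed no such difference. Csk, next to Cyp1a2 on the far side from Cyp1a1, had an FPKM of 20.0 in Gcn2-/- PBS and 16.4 in Gcn2-/- ASNase, and of 21.1 in Atf4-/- PBS and 14.01 in Atf4-/- ASNase. Edc3, which lies beyond Cyp1a1, differed by -0.15 and -0.22 on the log2 scale in the same comparisons, and Clk3 by 0.20 and -0.15. None of these values exceeded its combined error.

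**Figure D3:**
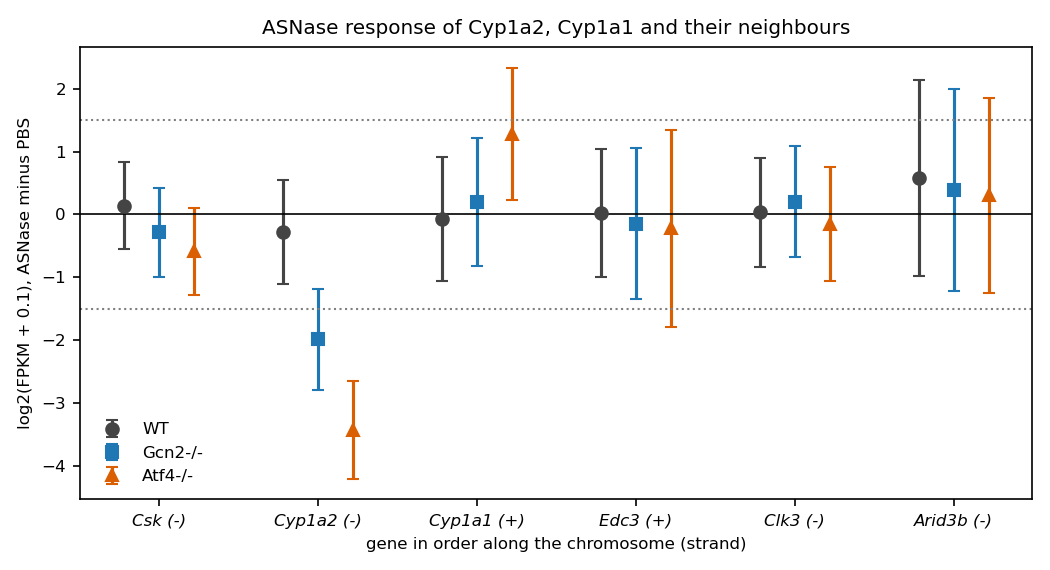
Difference of log2(FPKM + 0.1) between ASNase and PBS liver for Cyp1a2, Cyp1a1 and the flanking genes with an FPKM over 0.1, in their order along the chromosome. Points are the genotypes, bars the combined interval and dotted lines the limit of 1.5. Cyp1a2 lies at -1.99 and -3.42 in the knockouts while Csk, Edc3, Clk3 and Arid3b have intervals that include 0.

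Other P450 genes were set beside Cyp1a2. Of the genes with a Cyp symbol, 96 were in the table. In Gcn2-/- liver 12 of 60 eligible P450 genes fell and 2 rose under ASNase, in Atf4-/- liver 23 of 62 fell and 4 rose, and in WT liver 1 of 59 fell and none rose. Over all eligible genes the share called, in either direction, was 3.69%, 7.37% and 0.881%, and in each genotype most P450 genes were not called. Their median difference was -1.02, -1.77 and -0.12 in the same order, beside -1.99, -3.42 and -0.28 for Cyp1a2, which was the 12th lowest of the eligible P450 genes in each knockout. Among them Cyp1a2 ranked 14 by FPKM in WT PBS and 15 in WT ASNase, 22 and 29 in Gcn2-/-, and 14 and 27 in Atf4-/- liver. Its share of the summed P450 FPKM went from 1.16% to 0.573% in Gcn2-/- and from 1.74% to 0.488% in Atf4-/- liver, against 1.82% and 1.48% in WT, so its level was lower also relative to the rest of the family. Hepatocyte markers moved with it: the summed FPKM of 8 such genes was 51061 and 40085 in WT liver with PBS and ASNase, 55700 and 23162 in Gcn2-/- and 41707 and 18517 in Atf4-/- liver. All 8 had an FPKM over 1 in every group, and the ninth, Alb, had no estimate. Of the 8, Fabp1 was called, at 7629 in Atf4-/- PBS and 46.6 in Atf4-/- ASNase. Their part in the Cyp1a2 result was not tested.

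Cyp1a2 is a gene of pericentral hepatocytes, so the other genes of that zone were set beside it. Of 9 eligible, 2 fell in Atf4-/- liver under ASNase, where 7.37% of all eligible genes were called, and none in WT or Gcn2-/- liver (0.881% and 3.69%). Gulo, an enzyme of ascorbate synthesis, went from 235 to 25.9 (log2 difference -3.18), and Lect2 from 105 to 9.98 (-3.39). The median difference over the list was -1.98 in Atf4-/- liver, -0.16 in Gcn2-/- liver and -0.02 in WT liver, where the median of all eligible genes was 0.08, 0.02 and -0.01. Glul, the glutamine synthetase of the innermost hepatocytes, had an FPKM of 639 in Atf4-/- PBS and 140 in Atf4-/- ASNase, with overlapping intervals, and of 233 and 370 in Gcn2-/- liver. Cyp2e1, another pericentral P450, had 4522 and 1150 in Atf4-/- liver and was not called. Of 10 periportal genes, 1 fell in Atf4-/- liver, Cyp2f2, from 506 to 29.2 (-4.11), and none in the other genotypes, which is near the shares over all genes. The median of the periportal list was -0.67 in Atf4-/- and -0.43 in Gcn2-/- liver. In Gcn2-/- liver Cyp2e1 differed by -0.74 and Oat, an ornithine aminotransferase, by -0.71, neither of them called. These were the lowest differences of the 9 eligible pericentral genes there, while some others were higher with ASNase, Glul by 0.67. The part of the pericentral zone in the Cyp1a2 result was not tested.

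Hsp90aa1, Hsp90ab1 and Ptges3, whose proteins hold AHR in the cytosol, showed no call in any of the 9 comparisons. Hsp90ab1, the constitutive form of heat shock protein 90, had an FPKM of 375 and 370 in WT, 284 and 198 in Gcn2-/-, and 315 and 380 in Atf4-/- liver with PBS and ASNase. Ptges3, which encodes p23, had 36.0 and 60.3 in Atf4-/- liver with PBS and ASNase. Among 10 relatives of AHR in the bHLH-PAS family, 4 were eligible in each knockout and 1 rose under ASNase (3.69% of all eligible genes in Gcn2-/- and 7.37% in Atf4-/- liver). This was Arntl, also named Bmal1, a core gene of the circadian clock. Its level went from 0.367 to 3.75 in Gcn2-/- liver (log2 difference 3.04) and from 0.865 to 4.998 in Atf4-/- liver (2.40), and was 1.31 and 0.462 in WT liver with PBS and ASNase. It was eligible in the knockouts only through its level under ASNase.

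Of 14 further genes known to be induced through AHR, or by AHR together with NRF2, the list did not move one way. In WT liver 1 of 13 eligible genes rose under ASNase and none fell, in Gcn2-/- liver 1 of 12 fell and none rose, and in Atf4-/- liver 1 of 11 rose and 1 fell. The share of all eligible genes called was 0.881%, 3.69% and 7.37% in the same order. The gene in WT was Aldh3a1, an aldehyde dehydrogenase, at 0.106 (0 to 0.365) with PBS and 9.33 (4.37 to 14.3) with ASNase. It was eligible there, and entered the count, only through its level under ASNase. Its level was 0.0528 in Gcn2-/- ASNase and 0.278 in Atf4-/- ASNase liver. Gsta2, a glutathione transferase, fell from 65.9 to 4.31 in Gcn2-/- liver (-3.90) and from 10.4 to 1.07 in Atf4-/- liver (-3.16), and was lower in Atf4-/- than in WT liver already under PBS (46.8 in WT, -2.16). Its relative Gsta1 was also lower in Atf4-/- PBS liver, at 0.687 against 13.7 in WT PBS (-4.13). Gsta1 and Gsta2 are near-identical copies, and how their reads were split is uncertain. Cd36, a fatty acid uptake receptor, rose in Atf4-/- liver from 17.2 to 64.4 (1.90). Nqo1, the quinone reductase often measured beside Cyp1a1, was at 6.34 and 6.30 in WT, 6.78 and 3.46 in Gcn2-/-, and 2.94 and 3.72 in Atf4-/- liver with PBS and ASNase, with no call. Ugdh, which makes the sugar donor for glucuronidation, was lower in Atf4-/- than in WT liver under ASNase, at 19.0 against 102 (-2.42). The list's median difference under ASNase in WT liver was 0.18, against -0.22 in Gcn2-/- and -0.36 in Atf4-/- liver.

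**Figure D4:**
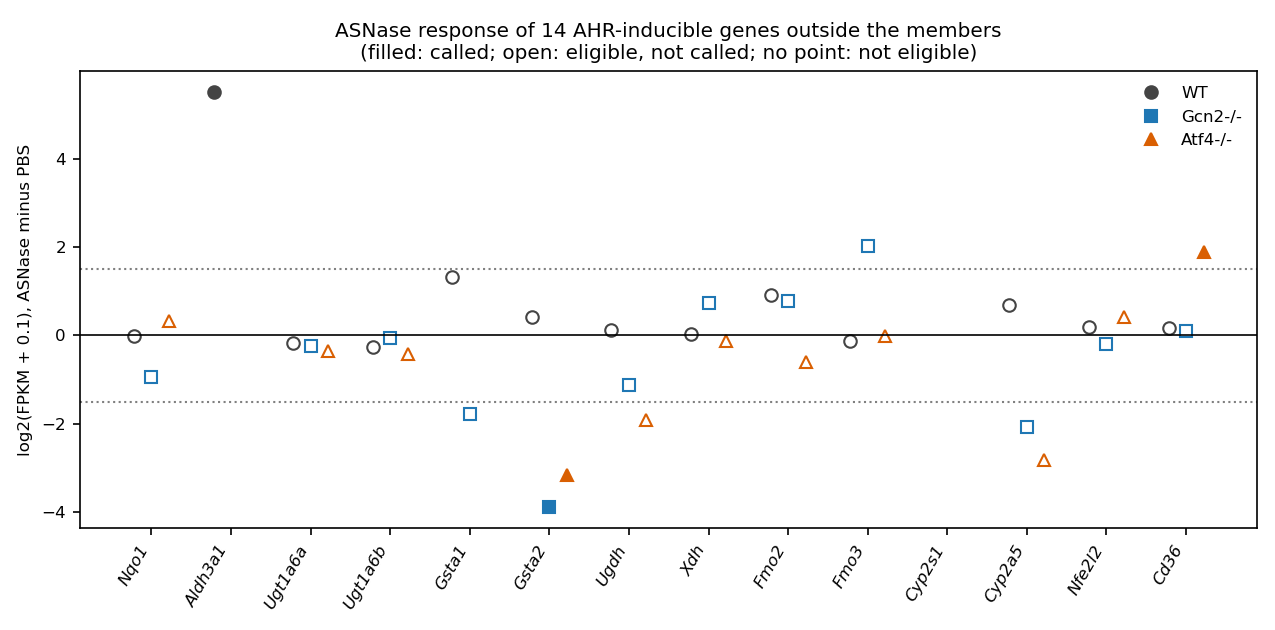
Difference of log2(FPKM + 0.1) between ASNase and PBS liver for 14 AHR-inducible genes outside the members, by genotype. Filled points were called, open points were eligible and not called, genes without a point were not eligible, and dotted lines mark the limit of 1.5. Aldh3a1 is filled at 5.52 in WT liver, Gsta2 at -3.90 and -3.16 in the knockouts, and Cd36 at 1.90 in Atf4-/- liver.

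Other xenobiotic receptors and their targets, 9 genes that were all eligible, gave no call under ASNase in WT or Gcn2-/- liver, and 1 higher and 1 lower in Atf4-/- liver, where 7.37% of all eligible genes were called. Cyp2b10, the classical target of the receptor CAR, rose from 2.63 to 49.1 (4.17), from a PBS level below that of WT, 15.3 (-2.50). For this rise Cyp2b10 was eligible only through its level under ASNase. Cyp4a14, a target of PPARα, fell from 164 to 24.1 (-2.76). Thus in Atf4-/- liver under ASNase Cyp2b10 and Cyp1a2, both P450 genes under xenobiotic receptors, were called in opposite directions. Of the 4 electron donors that P450 enzymes need, Cyb5b, a cytochrome b5, fell in Atf4-/- liver from 99.0 to 30.3 (-1.71), and no donor was called in the other genotypes under ASNase.

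Tryptophan breakdown yields kynurenines, some of which are AHR ligands. Of 7 eligible enzymes of that path, 3 fell in Atf4-/- liver under ASNase and none in Gcn2-/- or WT liver, where 7.37%, 3.69% and 0.881% of all eligible genes were called. Ido2, which opens the tryptophan ring, went from 29.6 to 6.09 (-2.26), Kynu, the kynureninase, from 81.7 to 24.8 (-1.72), and Haao, which acts on hydroxyanthranilate, from 311 to 86.2 (-1.85). Tdo2, the main tryptophan-opening enzyme of hepatocytes, was at 889.6 with PBS and 645 with ASNase in Atf4-/- liver (-0.46) and was not called. The median of the 7 was -1.72 in Atf4-/-, -0.71 in Gcn2-/- and -0.17 in WT liver, beside 0.08, 0.02 and -0.01 over all eligible genes.

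Acute phase genes, which inflammatory cytokines raise in hepatocytes, were called in a minority of cases. Under ASNase 2 of 10 eligible genes rose in Gcn2-/- and 2 of 10 in Atf4-/- liver, with list medians of 2.96 and 2.42, and none of 13 in WT, with a median of -0.21. Over all eligible genes the share called was 3.69%, 7.37% and 0.881% and the median 0.02, 0.08 and -0.01 in the same order. The difference between genotypes was not tested. Orm3, an acid glycoprotein, went from 1.01 to 92.1 in Gcn2-/- and from 10.9 to 111 in Atf4-/- liver. In Gcn2-/- liver Orm3 was eligible only through its level under ASNase. Saa3, a serum amyloid, went from 23.2 to 672 in Atf4-/- liver, and was already at 876 in Gcn2-/- PBS liver against 17.7 in WT PBS. The part of this in the Cyp1a2 and Tiparp values was not tested.

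The genes whose levels followed each member most closely over the 6 groups were taken from 10172 genes with an FPKM over 3 in at least 1 group, by Pearson's r of log2(FPKM + 0.1), as a description over 6 points that share their groups. Those most like Cyp1a2 were Arsb (0.997), C2cd2 (0.997) and Cyp4a12b (0.997), and 321 genes had an r over 0.95. Cyp4a12b, a P450 that is higher in male mice, was at 14.04 and 14.5 in WT, 5.12 and 0.216 in Gcn2-/-, and 10.6 and 0.0553 in Atf4-/- liver with PBS and ASNase. Those most like Tiparp were Rtcd1 (0.998), Wdr46 (0.997) and D1Bwg0212e (0.996), with 481 genes over 0.95. For Arnt they were Gm20457 (0.993), Gm505 (0.991) and Invs (0.990), with 161 genes. For Ahr they were 9630033F20Rik (0.979), Zbtb17 (0.976) and Unc45b (0.974), with 9 genes. Between the members, r was -0.90 for Arnt with Cyp1a2, -0.87 for Tiparp with Cyp1a2 and 0.96 for Tiparp with Cyp1b1, and Ahr with Cyp1a2 gave -0.51. No Arnt difference exceeded its combined error. Cyp1b1 was below the FPKM filter of 3 used above, with overlapping intervals, so these coefficients partly rest on levels that were not separated.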

How the data were processed

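The authors sequenced unstranded TruSeq libraries of poly-A selected liver RNA, aligned reads with TopHat to mm10 and estimated FPKM with Cufflinks, Cuffmerge and Cuffdiff. The deposited table holds 1 FPKM per gene and group, pooled from 3 libraries, with lower and upper bounds and a status. Values per library were not used here, so no test over libraries was run. In the call rule, the FPKM and fold limits follow the study's methods, with separate intervals in place of the q value. Values were used as deposited, with Python 3.11.15, pandas 2.3.3 and numpy 2.4.6. The rule ran over all 37303 genes in 9 comparisons. It was tried on simulated data with 200 genes changed 16-fold, which does not cover smaller differences near the limit or genes of low FPKM. The members, the 18 gene lists and the rules were chosen with earlier results of these data known, so nothing here is independent support for a pattern seen earlier. Named genes are the members, list genes called in any comparison (otherwise up to 4 of the most abundant), and the 3 genes most like each member with an FPKM over 3. Outside this rule, Glul, Oat, Cyp2e1, Nqo1, Tdo2, Dcn and the neighbours of Cyp1a2 were chosen after their values were seen, and most called genes of the cell type lists are not named. Genes listed under older symbols were matched by Ensembl ID. Gene positions and transcript sequences come from GENCODE release M21 and promoters from RefSeq, both GRCm38. Alternatives were other pseudocounts (0.01, 1), FPKM filters (over 1, none), a combined interval and median-ratio scaling. 1 listed gene is not reported here.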

Additional observations from a re-analysis of the deposited data

Results flagged for a closer look

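In 4 cases the ASNase response of a member differed between genotypes by more than 1.5 on the log2 scale and by more than the combined error of the 4 groups involved. That error counts only the upper half-width of each interval. For Cyp1a2 the response in Gcn2-/- liver minus that in WT was -1.71 (-2.87 to -0.55), and in Atf4-/- liver minus that in WT -3.14 (-4.28 to -2.00). For Tiparp the response in Atf4-/- liver exceeded that in WT by 3.08 (1.69 to 4.47) and that in Gcn2-/- liver by 2.15 (0.81 to 3.49). With 1 pooled value per group, none of these differences was tested against replicates. The wide interval of Tiparp in Atf4-/- ASNase liver (5.27 to 35.6) enters both of its differences, with its upper half-width only. Its lower half-width, from 20.4 to 5.27, is wider on the log2 scale. The Tiparp difference of 2.15 is thus not shown to exceed an error that counts both sides.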

How the results depend on the processing

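Every call of a member under ASNase or between genotypes kept its side of the limits with pseudocounts of 0.01 and 1, FPKM filters over 1 or none, and median-ratio scaling. With the combined interval in place of separate intervals, 1 member in place of 0 was called in Atf4-/- ASNase against Gcn2-/- ASNase liver, which was Tiparp at 2.36. Scaling turned the difference of responses of Cyp1a2 between Atf4-/- and Gcn2-/- liver from -1.43 to -1.51, past the limit. Scaling also turned the sign of Tiparp under PBS in Gcn2-/- against WT liver, 0.02 as deposited and -0.04 scaled, both within error. No paired analysis was possible because the table holds 1 pooled value per group. Leaving out each replicate was not run for the same reason.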

Other observations

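Among the genes that ran most opposite to Tiparp over the 6 groups, picked after their values were seen, were Akr1d1, the steroid reductase of bile acid synthesis, and Pbld2, both abundant in liver. Akr1d1 had an FPKM of 88.9 and 86.3 in WT, 91.2 and 50.4 in Gcn2-/-, and 76.2 and 13.9 in Atf4-/- liver with PBS and ASNase. Pbld2 had 79.1 and 92.0, 86.2 and 43.5, and 66.8 and 8.88. Their Pearson's r with Tiparp was -0.999 and -0.998 over 6 points, and 496 of 10172 genes had an r under -0.95.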
